A study of Mus musculus with 25 samples.

Results

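The miR-17 to miR-92a cluster is a set of microRNAs (miRNAs, short RNAs that lower the output of messenger RNAs they pair with) cut from hairpins that lie side by side in a single transcript. Its 6 main mature products, mmu-miR-17-5p, mmu-miR-18a-5p, mmu-miR-19a-3p, mmu-miR-19b-3p, mmu-miR-20a-5p and mmu-miR-92a-3p (the mouse prefix mmu is left out below), were picked by name from a deposited count table and make up 6 of its 1493 entries. The table covers small extracellular vesicles (membrane-bound particles that cells release) made from mouse liver, all of the wild-type C57BL/6J strain, at the 5 ages of 1 week, 6 weeks, 6 months, 12 months and 14 months. There were 5 mice and 5 libraries at each age, 25 libraries in all, and males and females were equally represented per the labels, which do not give the sex of each mouse. Livers were opened with a tumor dissociation kit, vesicles were pelleted by ultracentrifugation, and QIAseq miRNA libraries were read as pairs on an Illumina NovaSeq. The batch given in the labels is the age again, so an effect of handling and an effect of age cannot be told apart. Vesicles from every cell type of the dissociated tissue entered 1 library per mouse, so fewer vesicles of a type and less of a miRNA per vesicle cannot be told apart either.

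The cluster is known as oncomiR-1, because its gain drives lymphoma in mice, and its transcription is raised by the proliferation factor Myc. The products fall into families by their seed, the stretch near the 5′ end that pairs with target messages, and they are abundant in dividing and fetal cells. miR-17 and miR-20a act on messages of cell-cycle regulators, miR-18a on the matrix protein Ctgf in mouse colon cells, and miR-92a on the integrin Itga5 in endothelium. miR-19 is the part of the cluster that drives mouse lymphoma most.

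All 6 hairpins lie on chromosome 14 of the mouse build GRCm38 in the order Mir17, Mir18, Mir19a, Mir20a, Mir19b-1 and Mir92-1, on the forward strand. They span chr14:115043671-115044506, which is 836 bp, within an exon of the annotated long non-coding RNA gene Mir17hg (chr14:115042879-115046727). The mature sequences below, from RefSeq on GRCm38.p6, are written 5′ to 3′ with the seed (bases 2 to 8) in capitals, and they are shown because 4 seeds and a few single-base differences decide which counts can be told apart.

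miR-17-5p: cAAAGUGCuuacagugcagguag

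miR-20a-5p: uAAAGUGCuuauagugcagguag

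miR-18a-5p: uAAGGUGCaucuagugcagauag

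miR-19a-3p: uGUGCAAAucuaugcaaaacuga

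miR-19b-3p: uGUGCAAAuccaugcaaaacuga

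miR-92a-3p: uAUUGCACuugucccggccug

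With positions counted from 1 at the 5′ end, miR-19a-3p and miR-19b-3p differ by U11C alone, and miR-17-5p and miR-20a-5p by C1U and C12U. miR-18a-5p differs from miR-17-5p at 6 positions, including A4G within the seed. The mature miR-19b-3p and miR-92a-3p sequences are each found at 2 loci, in this cluster and on chromosome X in the paralogous miR-106a-363 cluster (chrX:52741991-52742013 and chrX:52741854-52741874, reverse strand), so their counts belong to both clusters together. Other products of that paralog are near copies of the members and are shown for the same reason.

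miR-106a-5p: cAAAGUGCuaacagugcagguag

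miR-20b-5p: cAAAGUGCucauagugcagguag

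miR-18b-5p: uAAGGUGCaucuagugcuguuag

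miR-106a-5p differs from miR-17-5p by U10A, miR-20b-5p from miR-20a-5p by U1C and U10C, and miR-18b-5p from miR-18a-5p by A18U and A20U.

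The deposited counts followed these similarities unevenly. miR-19a-3p had 23679 counts over the 25 libraries and miR-19b-3p 23576. Within a library, the miR-19a-3p count minus the miR-19b-3p count ran only from −1 to 11, and both counts were equal in 3 libraries. The 2 entries are therefore not independent results, and most of what is said of one holds for the other. miR-17-5p and miR-106a-5p came close without matching: their totals were 1928 and 1627, and the log2 ratio of miR-17-5p to miR-106a-5p lay between 0.041 and 0.46 in every library. The remaining near copies were counted apart, with totals of 19787 for miR-20a-5p and 592 for miR-20b-5p, and of 907 for miR-18a-5p and 121 for miR-18b-5p. How reads matching several miRNAs were assigned is not given in the sources used here, so levels of miR-19a-3p, miR-19b-3p, miR-17-5p and miR-106a-5p are uncertain as levels of single miRNAs.

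**Figure D1:**
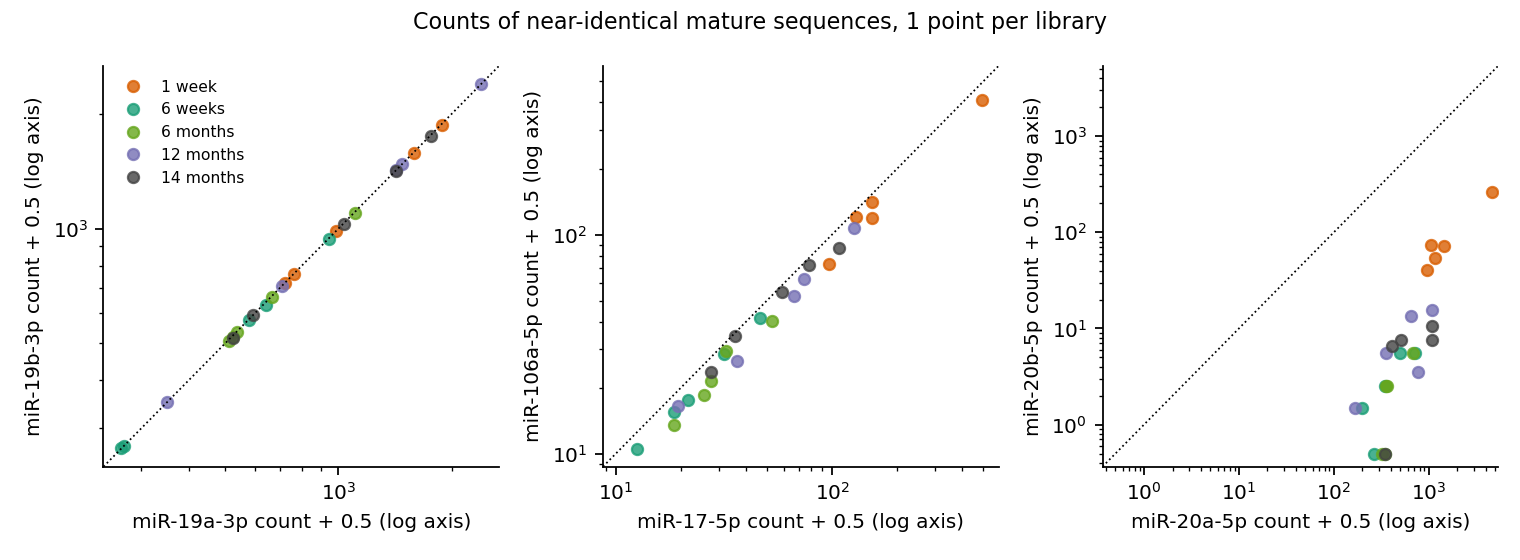
Counts of near-identical mature sequences, with 1 point per library coloured by age and the dotted line marking equal counts (both axes logarithmic, 0.5 added to each count). The miR-19a-3p and miR-19b-3p points lie on the line, the miR-106a-5p points sit just under it, and the miR-20b-5p points lie far below it and are higher at 1 week than at any adult age.

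Library totals ran from 641579 to 6888928 counts, with 641579 to 1738208 at 6 weeks and 2095925 to 6888928 at 1 week, so the depths of these 2 ages did not overlap. A count of 0 allows up to 3 counts, which is 0.283 to 4.90 CPM (counts per 1000000 counts of a library, scaled with TMM factors), and these floors cover counting error only. The hepatocyte miRNA miR-122-5p took 53.9% to 67.5% of all counts in a library, which fits the liver label. The TMM factors, which offset differences in composition, were 1.30 to 1.79 at 1 week and 0.719 to 1.08 at the adult ages, so a comparison with 1 week leans on them more than a comparison among adults. All 6 members passed the filter on low counts that left 391 entries for testing, and all 6 would have passed it on the adult libraries alone.

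Together the 6 members held a small portion of each library, and its order between ages turned with the scaling. Their raw counts summed to 0.171% ± 0.0411 of all counts in 1-week mice, 0.156% ± 0.0231 in 6-week mice, 0.143% ± 0.0172 in 6-month mice, 0.151% ± 0.0207 in 12-month mice and 0.127% ± 0.0278 in 14-month mice (SD, n = 5 each). With the miR-19 pair counted once, these percentages averaged 0.131%, 0.106%, 0.0947%, 0.0957% and 0.0844%, in the same order of ages. On the TMM scale the sum of the 6 was instead higher at 6 weeks, at 1575 ± 184 CPM (1334 to 1744), than at 1 week, at 1087 ± 145 CPM (964 to 1295), without overlap and without a test, and its means at the later ages lay between 1537 and 1721 CPM. The most abundant member changed with age. At 6 weeks miR-19a-3p led, in 51st place among 648 detected entries, ahead of miR-20a-5p in 61st place. At 1 week miR-20a-5p led, in 69th place among 811 detected entries, ahead of miR-19a-3p in 85th place. In both orders the neighbours overlapped between libraries. At every age miR-92a-3p lay below miR-20a-5p, without overlap, and miR-17-5p lay below every miR-92a-3p value. miR-18a-5p was the lowest member at all 5 ages, and its values overlapped those of miR-17-5p at 1 week only.

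**Figure D2:**
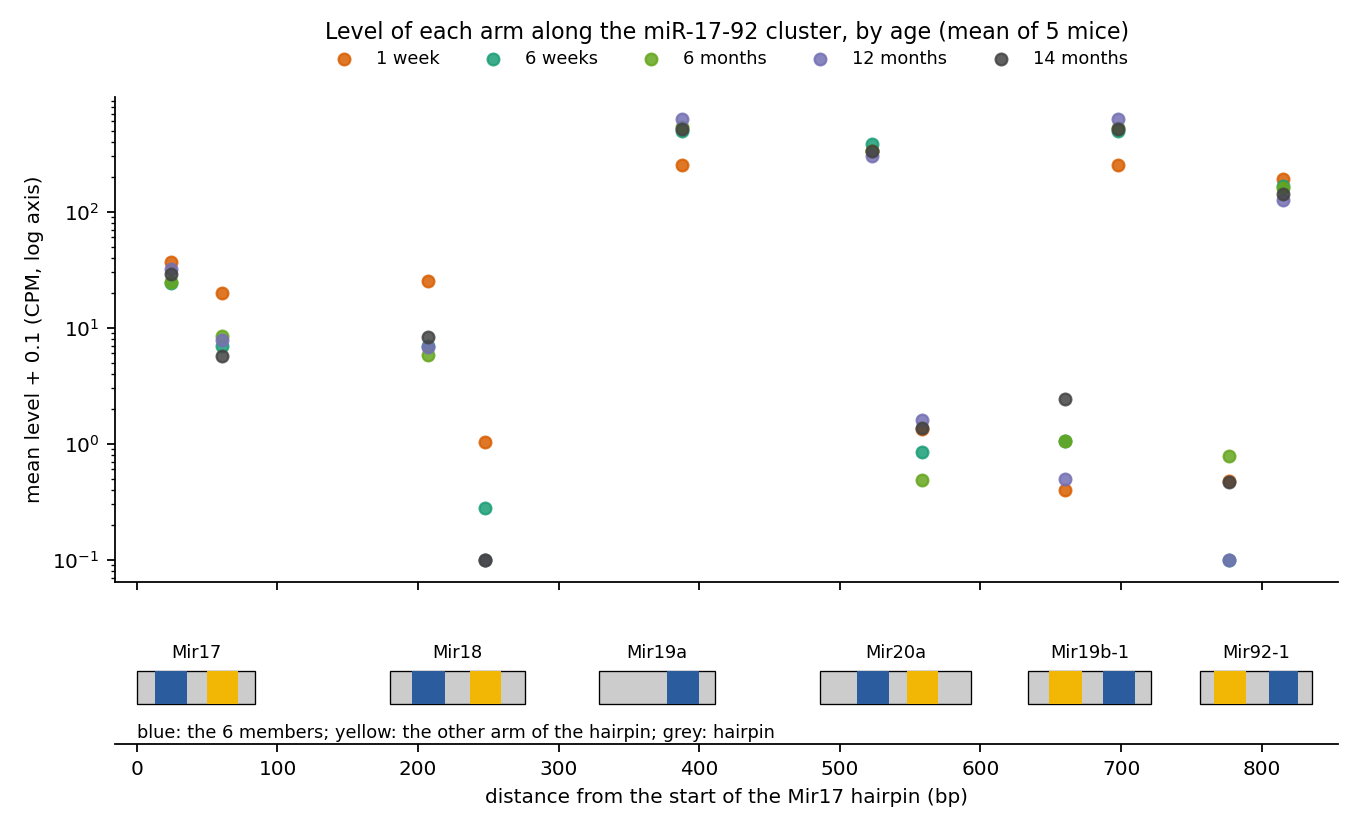
Mean level of each mature arm along the cluster (CPM plus 0.1, log axis; mean of 5 mice per age) above a map of the 6 hairpins drawn to scale by distance from the start of the Mir17 hairpin. Members (blue) lie from about 6 CPM for miR-18a-5p in adults to over 500 CPM for the miR-19 pair, and the other arms (yellow) lie far lower except miR-17-3p. miR-19a-5p has no drawn arm or point.

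At 6 weeks against 1 week the members did not move together. edgeR's quasi-likelihood test with Benjamini-Hochberg adjustment called 4 of the 6: the miR-19 pair was higher at 6 weeks, and miR-17-5p and miR-18a-5p were lower. This comparison called 71.9% of all 391 tested entries (35% higher, 36.8% lower), so 4 of 6 is close to the background. The median log2 fold change of the 6 members was −0.0066, against 0.12 over all tested entries. The miR-19 pair, with nearly equal counts, enters both this median and the count of called members as separate entries. With the pair taken once, the middle value is that of miR-92a-3p, −0.22. Seen within the cluster, a roughly 2-fold higher level of its most abundant pair stood beside a 3.80-fold lower level of its least abundant product.

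miR-18a-5p had the clearest difference. Its level was 11.2, 8.16, 3.87, 4.43 and 6.55 CPM in the 6-week libraries, against 26.8, 21.7, 28.9, 18.5 and 30.3 CPM in the 1-week libraries. Every 6-week library lay below every 1-week library. The log2 fold change was −1.93 ± 0.30 (SE; adjusted p = 3.72e-06, edgeR quasi-likelihood). It was the only member whose values did not overlap between these ages, against 57.3% of all tested entries without overlap. It stayed lower, with a call, under each of the 19 alternative analyses, where its log2 fold change ran from −2.60 to −1.44. The 6-week values rest on 4 to 11 counts per library, 33 in all, against 693 counts in the 1-week libraries.

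miR-17-5p, which sits in the neighbouring hairpin, was also lower but by less. It had 29.3, 19.6, 17.4, 27.5 and 27.4 CPM at 6 weeks, against 34.7, 40.9, 33.0, 29.2 and 46.2 CPM at 1 week. In 4 of the 5 libraries at 6 weeks it lay below every 1-week library, and mouse 6 overlapped with the lowest of them. Its log2 fold change was −0.60 ± 0.24 (adjusted p = 0.0274, edgeR quasi-likelihood). This call was lost in 8 of the 19 alternatives: with upper quartile factors (log2 fold change −0.12, adjusted p = 0.681) or the library total in the model (−0.095, adjusted p = 0.783), without the filter (adjusted p = 0.0700), without mouse 3, 27, 7 or 8 (adjusted p between 0.0624 and 0.0928) and without mice 1 and 27 together (adjusted p = 0.131). The difference was larger with library totals (−1.27, adjusted p = 4.44e-05), with DESeq2's size factors in edgeR (−1.07, adjusted p = 0.00039) and with DESeq2 (−1.06, adjusted p = 1.15e-05). The direction was lower at 6 weeks throughout.

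The miR-19 pair went the other way. miR-19a-3p had 369.9, 439, 562, 567 and 563 CPM at 6 weeks, against 427, 264, 186, 231 and 150.1 CPM at 1 week. Relative to their mean, the 1-week values were the most scattered of the 5 ages (coefficient of variation 42.6%), with mouse 1 highest and mouse 27 lowest, and mouse 1 alone reached the 6-week range. The log2 fold change was 0.99 ± 0.22 for miR-19a-3p (adjusted p = 0.000321) and 0.99 ± 0.22 for miR-19b-3p (adjusted p = 0.000332, edgeR quasi-likelihood for both), and without mice 1 and 27 it was 1.14 for each. Both remained higher in all 19 alternatives. The call was lost with library totals in place of TMM factors (miR-19a-3p 0.31, adjusted p = 0.260), with DESeq2's size factors in edgeR (0.51, adjusted p = 0.0613) and with DESeq2 (0.51, adjusted p = 0.0589).

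miR-20a-5p had 369.9, 327, 337, 445 and 429.6 CPM at 6 weeks, against 242, 385, 299.7, 290.4 and 434 CPM at 1 week. The groups overlapped, with 1 library at 6 weeks above all those at 1 week, and the log2 fold change of 0.21 ± 0.19 was not called (adjusted p = 0.315, edgeR quasi-likelihood). Its sign turned with the scaling: the log2 fold change was −0.46 with library totals (adjusted p = 0.0513) and 0.70 with upper quartile factors (adjusted p = 0.000948), and it was called higher with the library total in the model (0.69, adjusted p = 0.00595). miR-92a-3p had 184, 202, 147, 142 and 151 CPM at 6 weeks, against 139.5, 208, 232, 198 and 186 CPM at 1 week. Its log2 fold change was −0.22 ± 0.21 (adjusted p = 0.340). miR-92a-3p was called lower with library totals (−0.88, adjusted p = 0.000324), with DESeq2's size factors in edgeR (−0.68, adjusted p = 0.00344) and with DESeq2 (−0.69, adjusted p = 0.000508), and with upper quartile factors its log2 fold change was 0.29 (adjusted p = 0.192).

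**Figure D3:**
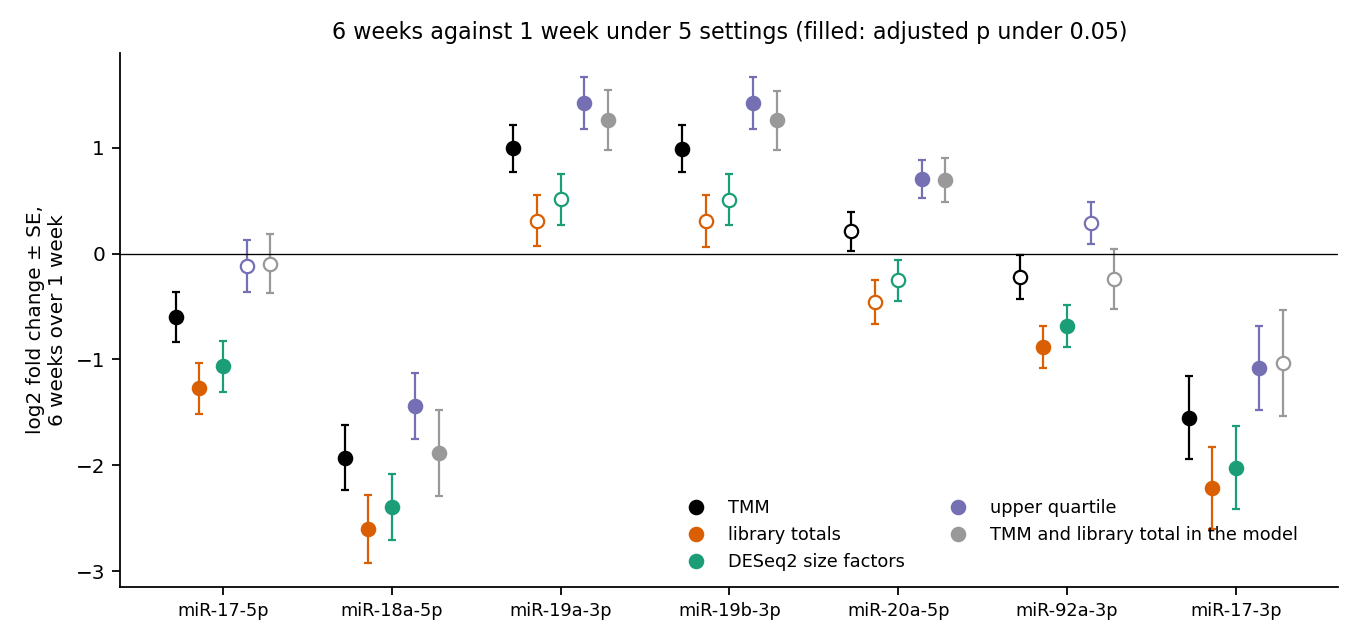
log2 fold change at 6 weeks over 1 week with its SE for the 6 members and miR-17-3p under 5 ways of scaling or modelling the libraries; filled points have an adjusted p under 0.05. miR-18a-5p is filled and negative in all 5 settings, the miR-19 pair is positive in all 5 and open in 2, and miR-20a-5p and miR-92a-3p change sign.

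The scalings moved the whole table as well as the members. Relative to TMM, the median log2 fold change of all tested entries shifted by −0.66 with library totals, by −0.46 with DESeq2's size factors and by 0.50 with upper quartile factors. Read against the median of all tested entries under the same scaling, miR-18a-5p and miR-17-5p were lower and the miR-19 pair higher under each of these 4 scalings. A change of scaling moves all entries by nearly the same amount, so this agreement was largely fixed in advance and adds no support.

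Among the 4 adult ages no member was called. This held for 6 months against 6 weeks (1.79% of tested entries called), 12 months against 6 months (0%), 14 months against 12 months (0%) and also for 14 months against 6 weeks (3.84%), and the smallest of these 24 adjusted p-values was 0.520 (edgeR quasi-likelihood). At an unadjusted p under 0.05 none of the 24 passed, and DESeq2 called none. The largest of these differences was a log2 fold change of 0.38 ± 0.24 for miR-17-5p at 12 months against 6 months. The contrasts share libraries of the ages they have in common and are not independent of each other.

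The adult levels are given by age for the members in cluster order. miR-17-5p averaged 24.2 ± 5.33 CPM in 6-week mice, 24.6 ± 5.32 in 6-month mice, 31.8 ± 6.99 in 12-month mice and 29.2 ± 6.41 in 14-month mice. miR-18a-5p averaged 6.84 ± 2.97, 5.75 ± 1.68, 6.66 ± 1.27 and 8.29 ± 2.66 CPM at the same ages (SD, n = 5 each). No adult library reached the lowest 1-week value of miR-18a-5p, since the highest adult value was 12.9 CPM in mouse 23 at 14 months. miR-19a-3p averaged 500.1 ± 90.6, 533 ± 46.4, 629 ± 150.0 and 515 ± 98.6 CPM, again youngest adult age first. Its widest adult spread was at 12 months, where the 5 mice had 434, 519, 658, 754 and 781 CPM, in the same order as their library totals of 839642, 1352924, 2461193, 2466584 and 3778798 counts. At 1 week the deepest library, mouse 27 with 6888928 counts, instead had the lowest miR-19a-3p level, 150.1 CPM. With 5 libraries no correlation was computed. The library total entered an alternative model of the ages, but whether depth itself plays a part was not tested. miR-20a-5p averaged 382 ± 53.4, 332 ± 27.7, 301 ± 66.2 and 332 ± 83.7 CPM from 6 weeks to 14 months, and miR-92a-3p 165 ± 26.6, 160.5 ± 41.1, 125 ± 33.5 and 141 ± 25.0 CPM. For both, the ranges of all 4 adult ages overlapped.

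**Figure D4:**
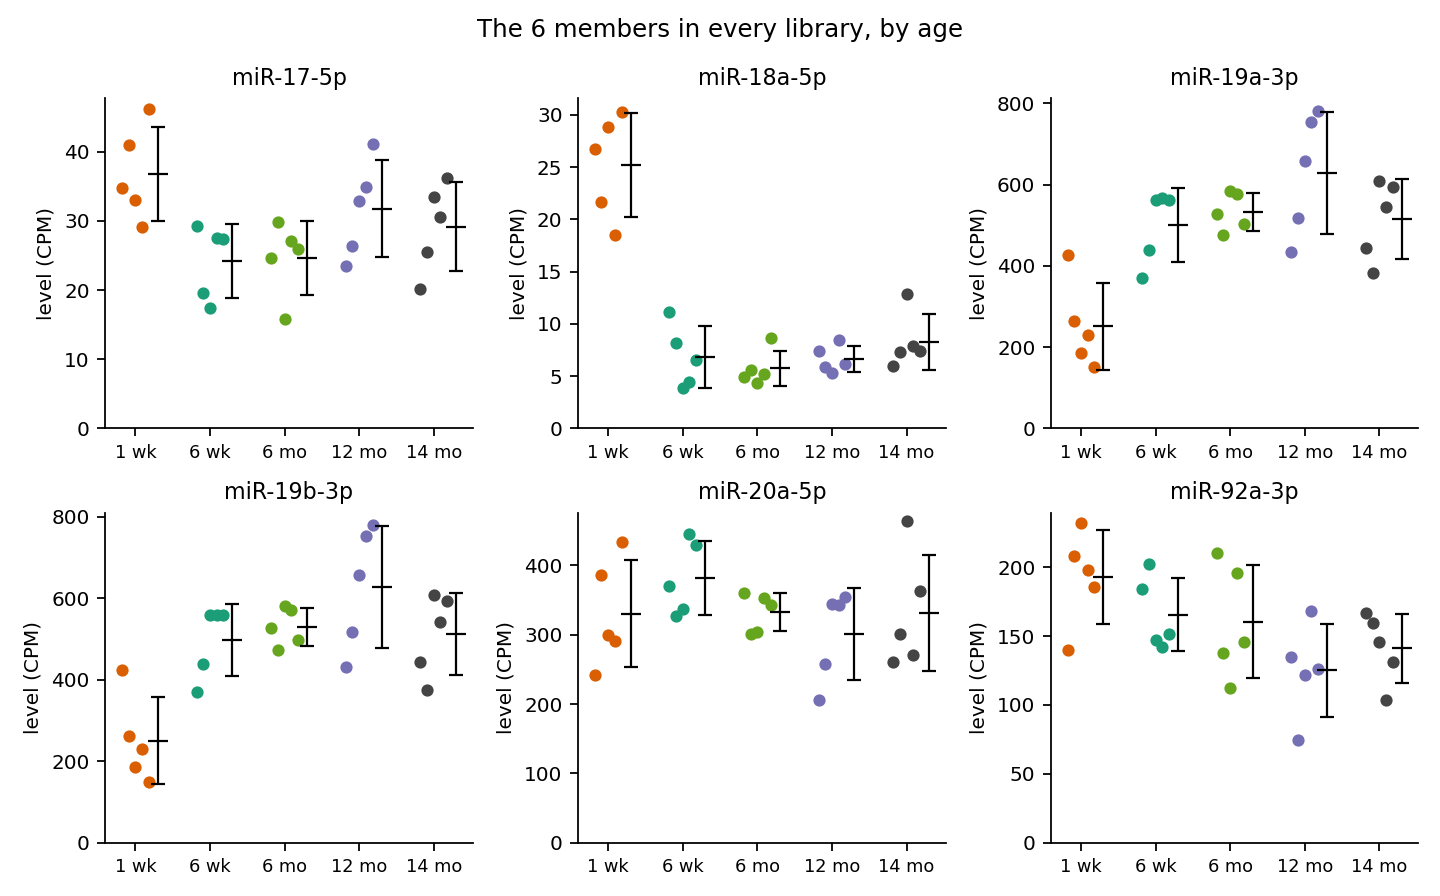
Level of each member in every library by age (CPM), with the mean and SD of the 5 mice drawn beside the points. miR-18a-5p drops after 1 week without overlap and stays low, the miR-19 panels are near copies of each other and are lowest at 1 week, where they are most scattered relative to their mean, and miR-20a-5p and miR-92a-3p overlap at all ages.

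Over all 5 ages at once, edgeR's quasi-likelihood F test called 3 of the 6 members, against 75.4% of all tested entries. These were miR-18a-5p (adjusted p = 1.16e-07), miR-19a-3p (0.000172) and miR-19b-3p (0.000173). miR-17-5p (0.103), miR-92a-3p (0.0836) and miR-20a-5p (0.523) were not called.

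A comparison of members within a library does not depend on the scaling between libraries. Each member was expressed as a percentage of the summed counts of the 6. miR-18a-5p held 0.455% ± 0.251 of the sum at 6 weeks and 2.36% ± 0.610 at 1 week, and miR-17-5p held 1.56% ± 0.413 at 6 weeks and 3.43% ± 0.758 at 1 week (SD, n = 5 each). Neither member overlapped between these ages. Each of these differences had an exact two-sided permutation p of 0.00794, the smallest that 5 libraries against 5 can give. Adjusted over the 30 tests of 6 members in 5 contrasts, that became 0.0794, so no share passed the threshold. A single difference at this smallest p could not have passed that adjustment. The lack of a pass therefore says little about the shares.

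The shares of the more abundant members were less clear cut. miR-19a-3p held 31.6% ± 2.56 at 6 weeks and 22.6% ± 6.63 at 1 week (exact permutation p = 0.0397, adjusted 0.108), and mouse 1 held the highest 1-week share, at 33.0%. miR-92a-3p held 10.8% ± 2.94 at 6 weeks and 18.2% ± 4.81 at 1 week (exact permutation p = 0.0238, adjusted 0.0794). miR-20a-5p held 24.3% ± 2.67 at 6 weeks and 31.0% ± 8.89 at 1 week (exact permutation p = 0.143, adjusted 0.278). Among adults, miR-20a-5p was the member whose share separated a pair of compared ages: it held 17.5% ± 1.07 at 12 months and 21.0% ± 1.33 at 6 months, without overlap (exact permutation p = 0.00794, adjusted 0.0794). Shares add up to a fixed whole, so a lower share need not mean a lower level. The miR-20a-5p level in that contrast was not called (log2 fold change −0.14, adjusted p = 0.893, edgeR quasi-likelihood). Counting miR-19a-3p and miR-19b-3p once left the same 3 differences without overlap and an adjusted p of 0.0661 for each.

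Ratios to miR-20a-5p of the same library show the pattern member by member. The log2 ratio of miR-18a-5p to miR-20a-5p was −3.70 ± 0.41 in 1-week mice, −5.78 ± 0.68 in 6-week mice, −5.78 ± 0.35 in 6-month mice, −5.42 ± 0.50 in 12-month mice and −5.29 ± 0.20 in 14-month mice (SD, n = 5 each). The lowest 1-week ratio, −4.14, lay above the highest adult ratio, −4.68. For miR-17-5p over miR-20a-5p the means were −3.15, −3.96, −3.76, −3.23 and −3.49, in the same order of ages. The 6-week ratios of miR-17-5p lay below all 1-week ratios, but those at 12 months overlapped the 1-week ones. At 14 months mouse 24 alone did so, at −3.14.

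The miR-19b-3p ratio was the widest of all at 1 week. It averaged −0.46 ± 0.85 there and ran from −1.54 in mouse 27 to 0.81 in mouse 1. Its adult means were 0.37 in 6-week mice, 0.67 in 6-month mice, 1.06 in 12-month mice and 0.64 in 14-month mice, and at 12 months its SD was only 0.086. miR-92a-3p over miR-20a-5p averaged −0.77 at 1 week and between −1.28 and −1.08 at the adult ages, with overlap throughout.

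**Figure D5:**
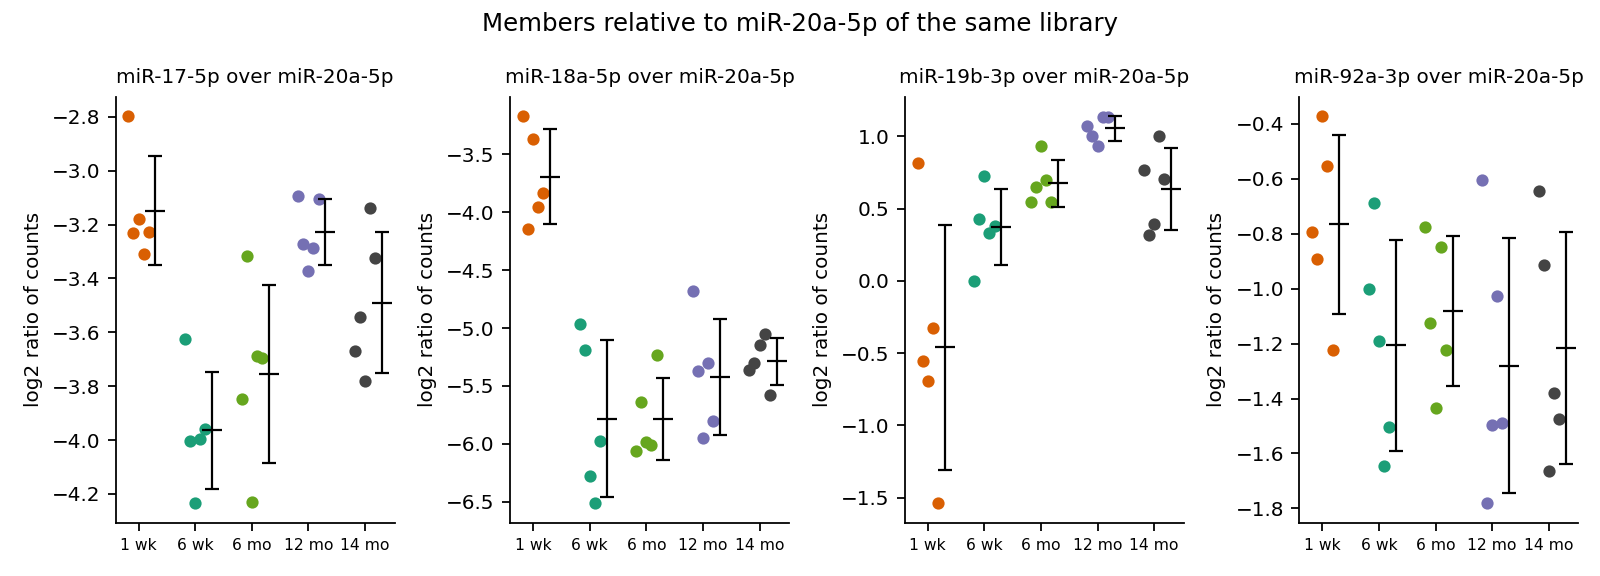
log2 ratio of counts of miR-17-5p, miR-18a-5p, miR-19b-3p and miR-92a-3p to miR-20a-5p of the same library by age, with the mean and SD of 5 mice. The miR-18a-5p ratios at 1 week (−4.14 to −3.17) lie above all adult ratios, and the miR-19b-3p ratios at 1 week span −1.54 to 0.81.

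Each hairpin also gives a second strand, the other arm, which is usually degraded. For this cluster only miR-17-3p passed the filter; it is shown with its seed in capitals.

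miR-17-3p: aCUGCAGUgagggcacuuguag

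miR-17-3p had 15.4, 4.90, 3.87, 2.66 and 7.74 CPM at 6 weeks, against 20.6, 15.0, 12.6, 21.3 and 29.2 CPM at 1 week, and mouse 6 overlapped with the lowest 1-week values. It was lower at 6 weeks by a log2 fold change of −1.55 ± 0.39 (adjusted p = 0.000922, edgeR quasi-likelihood). This call was lost with the library total in the model (−1.03, adjusted p = 0.0759). The log2 ratio of miR-17-5p to miR-17-3p averaged 1.95 ± 0.81 at 6 weeks and 0.94 ± 0.45 at 1 week, and these ranges overlapped. The other 5 arms were rare: over the 20 adult libraries miR-19b-1-5p had 42 counts, miR-20a-3p 31, miR-19a-5p 7, miR-92a-1-5p 7 and miR-18a-3p 1.

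The paralog clusters give the members' close relatives. In miR-106a-363 on chromosome X, 5 of 10 listed products had an entry and 2 passed the filter. miR-20b-5p passed it through the 1-week libraries alone, since none of the 20 adult libraries reached the filter's cutoff, and its values are therefore given without a test. miR-20b-5p had 0, 1.63, 1.94, 4.43 and 2.98 CPM at 6 weeks, against 16.8, 19.0, 13.9, 12.1 and 24.9 CPM at 1 week. The groups did not overlap, and the 6-week values rest on 13 counts in all. miR-106a-5p averaged 20.8 ± 4.92 CPM at 6 weeks and 31.3 ± 6.99 at 1 week, for a log2 fold change of −0.58 ± 0.26 (adjusted p = 0.0491, edgeR quasi-likelihood; 36.8% of tested entries were called lower), and lost its call in 13 of 19 alternatives. These included leaving out mouse 1, 3, 4, 5, 27, 6, 7, 8 or 9 (adjusted p between 0.0512 and 0.142).

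miR-18b-5p, the near copy of miR-18a-5p, was not tested because of its low counts. It had 1 count in the 5 libraries at 6 weeks, 3 in all 20 adult libraries, and 118 in the 5 at 1 week, where every library held between 11 and 52. Both miR-18 products were therefore highest in the 1-week libraries, and miR-18a-5p made up 84.9% ± 2.77 of their joint counts at 1 week.

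In miR-106b-25 on chromosome 5, 5 of 6 products passed the filter. Of the 4 that did so without need of the 1-week libraries, 2 were lower at 6 weeks and 2 were not called, against 36.8% of all tested entries called lower. Its leading products share seeds with members, AAAGUGC in miR-93-5p and AUUGCAC in miR-25-3p, and far exceed them.

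miR-93-5p: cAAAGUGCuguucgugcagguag

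miR-25-3p: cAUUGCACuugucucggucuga

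miR-93-5p averaged 1549 ± 269.8 CPM at 6 weeks and 2107 ± 311 CPM at 1 week (log2 fold change −0.44 ± 0.15, adjusted p = 0.0109), and miR-25-3p 1000.4 ± 238 CPM at 6 weeks and 1376 ± 143 CPM at 1 week (−0.46 ± 0.15, adjusted p = 0.00788, edgeR quasi-likelihood). With upper quartile factors both log2 fold changes turned positive, at 0.048 for miR-93-5p and 0.014 for miR-25-3p, and neither was called. Both calls were also lost with the library total in the model (adjusted p = 0.755 for miR-93-5p and 0.135 for miR-25-3p) and without mouse 5 (adjusted p = 0.0814 for miR-93-5p and 0.0651 for miR-25-3p). miR-106b-3p, which passed the filter through the 1-week libraries, had 8.38, 1.63, 3.87, 4.43 and 1.79 CPM at 6 weeks, against 7.03, 12.0, 28.6, 22.5 and 12.6 CPM at 1 week, and is given without a test for that reason. No product of either paralog cluster was called among adults.

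Grouped by seed, the members carried unequal parts of their families. Of the counts with the seed AAAGUGC, miR-17-5p and miR-20a-5p together held 14.5% ± 2.08 in 1-week mice, 20.5% ± 1.65 in 6-week mice, 20.9% ± 1.99 in 6-month mice, 17.9% ± 1.58 in 12-month mice and 17.4% ± 3.16 in 14-month mice (SD, n = 5 each). miR-93-5p held most of the rest. Of the counts with the seed AUUGCAC, miR-92a-3p held between 10.0% and 13.1% on average at each age. The seed GUGCAAA belonged to the miR-19 pair alone. A further holder of the miR-92a seed, miR-32-5p from another locus, is shown because it moved the opposite way to miR-25-3p.

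miR-32-5p: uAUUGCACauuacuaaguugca

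miR-32-5p had 103, 118, 128, 161 and 175 CPM at 6 weeks, against 34.3, 32.1, 24.7, 30.1 and 10.8 CPM at 1 week. It was higher at 6 weeks without overlap, by a log2 fold change of 2.39 ± 0.24 (adjusted p = 1.9e-09, edgeR quasi-likelihood), and remained called in all 19 alternatives. With the same seed, miR-32-5p and miR-25-3p were thus called in opposite directions under TMM factors.

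miRNAs that mark other cell types also differed at 6 weeks against 1 week, and their part in the members' differences was not tested. The counts below stand against 71.9% of all tested entries called in this comparison, 35% higher and 36.8% lower. Over both directions, the called shares of the immune, stellate and endothelial lists lay below that. Of 6 erythroid miRNAs listed, 5 were tested and 4 were lower, miR-486a-5p and miR-486b-5p with identical counts among them. The summed erythroid level, in which both of these identical entries are included, was 180.1 to 516 CPM at 6 weeks and 417 to 921 CPM at 1 week. The lowest erythroid sum at 1 week was in mouse 27, which had the highest miR-18a-5p and miR-17-5p levels. That is 1 library, and whether the members follow the erythroid sum between mice was not tested. Of 8 immune miRNAs, 5 were lower and 3 not called, with sums of 4849 to 6673 CPM at 6 weeks and 8719 to 11340 CPM at 1 week. All 7 miRNAs of biliary and other epithelium were lower. Of these, 1 owed its pass of the filter to the 1-week libraries, and so did 1 immune miRNA and both tested muscle miRNAs of 6 listed, so their calls are no support. The muscle sum was 1.94 to 8.38 CPM at 6 weeks and 60.7 to 1125 CPM at 1 week, highest in mouse 27 as well, and the muscle miRNA miR-208b-3p had no count at 6 weeks. All 5 tested hepatocyte miRNAs were higher, as were 4 of 7 stellate and smooth muscle miRNAs and 1 of 2 endothelial ones.

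The miRNAs whose 5 age means ran closest to each member were found among 137 candidates with a mean of at least 50 CPM, by the root mean square difference of centred log2 CPM. This is a description without a test, and likeness over 5 means is easily reached. A cell type is named below only for miRNAs of the marker lists above, and the cell of origin of the members was not tested. For miR-18a-5p they were miR-146b-5p (0.14 log2 units), the erythroid miR-144-3p (0.15) and the immune miR-223-3p (0.18), against a median of 1.20 over all candidates. For miR-17-5p they were the immune miR-142a-3p (0.083), miR-28a-3p (0.12) and let-7i-5p (0.12), against a median of 0.69. miR-19a-3p and miR-19b-3p shared miR-22-3p, let-7e-5p and miR-101b-3p, at 0.11 to 0.13 log2 units for each, against a median of 0.43. The closest to miR-20a-5p were miR-342-3p (0.11), miR-186-5p (0.13) and miR-339-5p (0.14), with a median of 0.56. miR-92a-3p was closest to miR-423-5p (0.042), miR-31-5p (0.12) and the erythroid miR-451a (0.13), with a median of 0.72.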

How the data were processed

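The authors deposited a table of raw counts per miRNA for 25 libraries. Bowtie, edgeR and the build mm10 are named in the submitters' processing notes, without versions. Whether counts are reads or unique molecular identifiers, the miRNA annotation and the mismatches allowed are not given in the sources used here. Of the 1493 entries, 398 are called unconservative and hold 0.0836% of counts. No 2 libraries of an age were identical (smallest chi-squared per degree of freedom 12.1).

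Counts were fitted with edgeR 4.0.16 in R 4.3.3 (1 mean per age, TMM factors, robust quasi-likelihood, filterByExpr; 391 entries tested, 1102 not), with Benjamini-Hochberg adjustment over all tested entries of a contrast and a threshold of 0.05. SE is the absolute log2 fold change divided by the square root of F, an approximation. The biological coefficient of variation was 37.6%. DESeq2 1.42.0 was an alternative. Code was tested on simulated counts. Shares went through an exact permutation test, two-sided (scipy 1.17.1), and log2 ratios used counts plus 0.5. Each library comes from 1 mouse.

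Members, relatives, marker lists and the likeness rule were chosen with earlier results of these data known. Named were the members, other arms, paralogs, seed sharers and the 3 most alike miRNAs per member. The alternative without mice 1 and 27 was added after seeing the data. Positions, seeds and sequences come from RefSeq and GENCODE tables of GRCm38; of 6 other arms and 10 miR-106a-363 products, miR-19a-5p and miR-363-5p are named only.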

Additional observations from a re-analysis of the deposited data

Results flagged for a closer look

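Of 60 groups of 5 libraries checked (6 members, 5 ages, level and share), 2 held a library far from the other 4, both for the level of miR-18a-5p. The check compares the gap to the nearest library with the whole range of the group and flags a ratio above Dixon's critical value, which chance exceeds in about 1 in 20 groups, so 2 of 60 is no more than chance gives. At 6 months mouse 15 had 8.65 CPM, where the next library had 5.59 CPM and the lowest 4.39 CPM. At 14 months mouse 23 had 12.9 CPM, where the next had 7.89 CPM and the lowest 5.98 CPM. These levels rest on 9 counts in mouse 15 and 30 counts in mouse 23.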

How the results depend on the processing

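The number of members called at 6 weeks against 1 week was 3 or 4 under every alternative, and 3 or 4 when any 1 mouse was left out. The main analysis called 71.9% of all tested entries. The members behind this number changed, and only miR-18a-5p was called in every alternative. Library totals, DESeq2's size factors and DESeq2 called miR-17-5p, miR-18a-5p and miR-92a-3p. Upper quartile factors and the library total in the model called miR-18a-5p, the miR-19 pair and miR-20a-5p. In the 4 adult contrasts the number of members called was 0 throughout. The number of member shares past the threshold was also 0 throughout. That says little, since a single difference at the smallest possible permutation p could not pass the adjustment. Over the 5 ages at once, 6 members were called with DESeq2's size factors in edgeR, 6 with DESeq2 and 0 in the 20 adult libraries alone, where 1 week is not part of the test. Leaving out each mouse gave 3 to 4.

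Log2 fold changes that changed sign were all uncalled under that alternative. At 6 weeks against 1 week, miR-20a-5p came to −0.46 with library totals, −0.25 with DESeq2's size factors, −0.043 without the filter and −0.25 with DESeq2. With upper quartile factors miR-92a-3p came to 0.29, miR-93-5p to 0.048, miR-25-3p to 0.014 and miR-93-3p to 0.45. miR-93-3p was 0.028 with the library total in the model and ranged from −0.25 to 0.27 without 1 mouse, and miR-106b-5p was −0.084 with library totals. At 6 months against 6 weeks, miR-17-5p came to −0.13 with library totals, −0.017 with DESeq2's size factors, −0.053 with upper quartile factors, −0.011 without the filter, −0.021 with DESeq2, −0.11 with the library total in the model and −0.0032 in adults alone. Library totals gave −0.038 for miR-19a-3p and −0.038 for miR-19b-3p in that contrast. At 14 months against 6 weeks, miR-17-5p came to −0.0017 with library totals and −0.13 with the library total in the model. In the same contrast miR-19a-3p came to −0.23 with library totals, −0.16 with upper quartile factors, −0.19 with the library total in the model and −0.026 in adults alone, and miR-19b-3p to −0.23, −0.16, −0.19 and −0.025. At 14 months against 12 months miR-20a-5p was −0.015 with upper quartile factors.

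Without 1 mouse, values spanning 0 were found at 6 months against 6 weeks for miR-17-5p (−0.096 to 0.13), miR-18a-5p (−0.39 to 0.017) and miR-92a-3p (−0.17 to 0.047). They were also found at 14 months against 6 weeks for miR-19a-3p (−0.050 to 0.13) and miR-19b-3p (−0.048 to 0.14), and at 14 months against 12 months for miR-20a-5p (−0.050 to 0.23). The cause of these changes was not tested. No paired analysis was possible because no mouse number occurs at more than 1 age. The 6-week libraries are the shallowest, and members or arms under about 5 CPM there lie near the limit that a count of 0 allows.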
